A study of Mus musculus with 9 samples.

Results

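The genes described are those of the mouse proteasome, taken from the deposited count table by symbol: Psma, Psmb, Psmc, Psmd, Psme, Psmf or Psmg followed by a number, with at least 10 counts in 3 or more libraries. The symbol pattern matched 50 of the 24421 genes in the table, none of them a symbol ending in -ps, and 49 passed the count rule. Psmb11, the catalytic subunit of the thymus proteasome, had 1 to 3 counts per library and was left out. The 49 genes comprised 14 of the 20S core (7 alpha and 7 constitutive beta subunits), 17 of the 19S cap, the 3 inducible catalytic subunits of the immunoproteasome (Psmb8, Psmb9 and Psmb10), 3 assembly chaperones of the 19S cap, 4 assembly chaperones of the 20S core, 5 activators or inhibitors, the testis-type alpha subunit gene Psma8, and 2 further genes that carry a matching symbol, Psmc3ip and Psme2b. All 49 were also among the 13270 genes that entered the statistical test.

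The 9 libraries came from mouse bone marrow. Lineage-positive cells had been removed, and the remaining progenitors had been expanded for 5 days in IL-3, IL-6 and SCF to give myeloid blast-like cells. The 3 groups, with 3 libraries each, were Tet2-/-Flt3ITD cells treated for 24 h with SHP099, an allosteric inhibitor of the phosphatase SHP2 (gene Ptpn11), Tet2-/-Flt3ITD cells given vehicle, and wild-type (WT) C57BL/6 cells given vehicle. The background strain is C57BL/6 for all samples. No source used here gives ages, the SHP099 dose or the nature of the vehicle, and there was no SHP099-treated WT group. The mutant libraries came from 3 cultures, each established from its own mouse and carrying the same number with and without SHP099, whereas the labels do not say whether each WT library had its own mouse. In comparisons with WT cells, p-values therefore measure the spread between these libraries, which may in part be technical. The groups model progenitors kept in cytokines outside the marrow, so differences between them apply to such cultures.

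Library totals ran between 27242168 and 45810089 counts. Tet2 took a smaller share of counts in all 6 mutant libraries than in any WT library, as the genotype label implies. The 8 progenitor and myeloblast markers (Ptprc, Spi1, Kit, Cd34, Mpo, Elane, Prtn3 and Ctsg) were all detected, with a summed level of 14470 to 20644 CPM, counts scaled to library size, in SHP099-treated mutant cells, 13707 to 20230 CPM in vehicle-treated mutant cells and 12317 to 15787 CPM in WT cells. Markers of mature neutrophils, mast cells and megakaryocytes were also present in all groups. The library of SHP099 culture 3 stood apart: the ribosomal precursor gene Rn45s took 4.33% of its counts, against 0.276% to 0.734% in the other 8 libraries. Calls of members that were lost without it are named. In bulk libraries such as these, fewer cells of a type and less RNA per cell cannot be told apart.

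The proteasome degrades proteins tagged with ubiquitin. Its 20S core is a barrel of alpha rings outside and beta rings inside, and 3 beta subunits hold the active sites: Psmb5 (chymotrypsin-like), Psmb6 (caspase-like) and Psmb7 (trypsin-like). The 19S cap binds ubiquitin chains, removes them and, by its ATPases Psmc1 to Psmc6, unfolds the substrate and feeds it into the core. In blood cells, and in other cells exposed to interferon gamma, Psmb8, Psmb9 and Psmb10 take the places of Psmb5, Psmb6 and Psmb7 in newly assembled particles, which alters the peptides offered to MHC class I molecules. Psme1 and Psme2 form the interferon-inducible activator PA28, which can dock on the core in place of the 19S cap.

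Promoter windows of the catalytic genes are shown because these genes carry the contrast between the inducible and constitutive particles. Each window holds 250 bases before the annotated start site and 50 bases after it, on the gene's strand, from RefSeq on GRCm38.p6. Capitals mark matches, on either strand, to the antioxidant response element core TGANNNNGC (bound by Nrf1 and Nrf2, the known activators of constitutive proteasome genes), the CCAAT box, and the gamma-activated site TTCNNNGAA; no matches overlap in these windows. The interferon-stimulated response element core (GAAA and GAAA with NN between) and the ETS core CCGGAAG were also searched. Neither is in these 4 windows. In the GENCODE annotation, Psmb8 (chr17:34197721-34201454) and Psmb9 (chr17:34181987-34187764) begin further upstream, and their windows lie inside the gene. Sequence before those outer starts was not searched, so absence from the windows does not extend to it. The windows of the inducible genes Psmb8 (chr17:34197945-34198244, plus strand) and Psmb9 (chr17:34187281-34187580, minus strand) come first, followed by those of the constitutive genes Psmb5 (chr14:54617946-54618245, minus strand) and Psmb6 (chr11:70525107-70525406, plus strand).
Psmb8: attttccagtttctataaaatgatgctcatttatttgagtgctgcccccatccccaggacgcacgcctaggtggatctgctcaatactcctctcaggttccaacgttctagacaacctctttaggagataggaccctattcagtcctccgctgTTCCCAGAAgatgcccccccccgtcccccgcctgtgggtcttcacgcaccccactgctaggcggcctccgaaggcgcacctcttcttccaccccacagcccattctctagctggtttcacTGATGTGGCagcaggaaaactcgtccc
Psmb9: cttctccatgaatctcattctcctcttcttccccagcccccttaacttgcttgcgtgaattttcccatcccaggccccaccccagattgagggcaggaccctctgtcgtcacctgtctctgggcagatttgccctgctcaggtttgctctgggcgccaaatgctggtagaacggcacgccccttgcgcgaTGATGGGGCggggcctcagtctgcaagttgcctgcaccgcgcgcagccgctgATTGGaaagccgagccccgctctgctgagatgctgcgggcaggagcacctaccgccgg
Psmb5: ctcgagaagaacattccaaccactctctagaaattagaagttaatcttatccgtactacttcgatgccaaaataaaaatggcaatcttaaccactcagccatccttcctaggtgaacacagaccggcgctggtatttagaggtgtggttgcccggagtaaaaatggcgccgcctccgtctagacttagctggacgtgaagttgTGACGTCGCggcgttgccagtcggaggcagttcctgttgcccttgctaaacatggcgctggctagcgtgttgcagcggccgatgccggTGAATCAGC
Psmb6: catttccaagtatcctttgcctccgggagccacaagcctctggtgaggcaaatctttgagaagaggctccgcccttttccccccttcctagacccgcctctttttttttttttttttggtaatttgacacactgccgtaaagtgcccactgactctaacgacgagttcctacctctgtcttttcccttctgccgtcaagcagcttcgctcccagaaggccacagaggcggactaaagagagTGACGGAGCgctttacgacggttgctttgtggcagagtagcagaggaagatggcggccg

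A window was in the table for 42 of the 50 symbols. The antioxidant response element core was in 54.8% of these 42 windows, against 41.4% of all 27025 windows of the same length. The CCAAT box was in 35.7%, against 37.9% of all windows, and the gamma-activated site in 7.14%, against 8.47%. The ETS core was in 33.3% of the proteasome windows, among them those of Psmc1, Psmc2, Psmc6, Psmd11, Psmd12 and Psmd13, against 9.12% of all windows. The interferon-stimulated element core was in 11.9%, those of Psmb3, Psmd4, Psmd9, Psme1 and Psmg4, against 3.49% of all windows. A match describes the letters in the window and is not evidence of binding.

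Mean levels over the 9 libraries ran from 3.27 CPM for Psma8 to 428 CPM for Psmd2, and differences between groups were small for most members. Their summed level averaged 7422 ± 124 CPM in SHP099-treated mutant cells, 7325 ± 185 CPM in vehicle-treated mutant cells and 6780 ± 117 CPM in WT cells (SD, n = 3 each). CPM here are scaled by TMM, which sets libraries to a common level for most genes. The 14 genes of the 20S core summed to 2446 ± 81.9 CPM in SHP099-treated mutant cells, 2309 ± 130.0 CPM in vehicle-treated mutant cells and 2159 ± 35.1 CPM in WT cells. The 17 genes of the 19S cap summed to 3501 ± 58.3, 3577 ± 65.6 and 3320 ± 70.2 CPM in the same 3 groups. The 3 immunoproteasome genes stood apart from both, with 312 ± 12.4 CPM in SHP099-treated mutant cells, 265 ± 1.68 CPM in vehicle-treated mutant cells and 208 ± 6.42 CPM in WT cells, and no library of these 3 groups overlapped with another group.

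Genes were called at an adjusted p below 0.05 in edgeR's quasi-likelihood test, adjusted over all 13270 genes. The 3 comparisons share groups, so their values are given side by side and no overlap between them is tested. With SHP099, 5 of the 49 genes were higher than in mutant vehicle cells (Psmb1, Psmb8, Psmb9, Psmb10 and Psmd8) and 3 were lower (Psmd3, Psmd12 and Psme3). These are 10.2% and 6.12% of the members, while 8.81% of all genes tested were called higher and 13.0% lower, so the count over the whole set was near the background. By class the calls were uneven: all 3 immunoproteasome genes were higher, against 1 of 14 in the 20S core and 1 of 17 in the 19S cap, where 2 were lower. The median log2 fold change was 0.20 for the immunoproteasome genes, 0.08 for the 20S core and -0.03 for the 19S cap, against 0.0036 over all genes.

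Between mutant and WT vehicle cells, 20 of the 49 genes were higher and 1 was lower. This is 40.8% of the members, against 16.9% of all genes called higher, and 2.04%, against 14.7% of all genes called lower. The median log2 fold change was 0.28 for the immunoproteasome genes, 0.08 for the 20S core and 0.10 for the 19S cap, with 0.024 over all genes. Between SHP099-treated mutant cells and WT cells, 22 of 49 (44.9%) were higher and 0 lower, against 15.4% and 16.3% of all genes; DESeq2 also called 22 and 0, and 1 gene was lower at an unadjusted edgeR p below 0.05. There the medians were 0.61, 0.18 and 0.07 for the same 3 classes, with 0.0049 over all genes.

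These counts moved by more than 1.5 times with the pairing of the cultures, with transcript length, with single libraries and with the 2 groups fitted alone. Libraries of the same mutant culture deviated together, and a fit with the culture as a block called 11 members higher with SHP099 (22.4%) and 4 lower (8.16%), where 21.5% and 21.3% of all genes were called. It added Psmb2, Psmb4, Psmd10, Psmd13, Psme1 and Psme2 to the higher genes and Psmc6 to the lower ones. When the trend of fold change with transcript length and GC content was removed, 2 members were higher with SHP099 (Psmb8 and Psmb9) and 9 lower, against 7.56% and 9.03% of all genes, and the median of the 20S core turned to -0.05. The same removal left 8 members higher and 1 lower (Psmd11) between SHP099-treated mutant and WT cells, against 12.3% and 13.4% of all genes, and 24 higher and 0 lower between the vehicle groups, against 14.3% and 15.3%. Of the 22 genes called between SHP099-treated mutant and WT cells, the 8 kept by that removal were Psma3, Psma8, Psmb1, Psmb8, Psmb9, Psmb10, Psmd8 and Psmd13. Of the 21 called between the vehicle groups, the 3 lost were Psma3, Psmc6 and Psmd9.

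Without SHP099 culture 3, SHP099 against vehicle gave 2 members higher (4.08%, against 5.04% of all genes) and 1 lower (2.04%, against 8.19%). SHP099-treated mutant against WT cells then gave 8 higher (16.3%, against 8.09% of all genes): Psma1, Psma3, Psma4, Psma8, Psmb8, Psmb9, Psmb10 and Psmd6. The other 14 calls of that comparison were lost, those of Psma2, Psma5, Psma6, Psma7, Psmb1, Psmb2, Psmd7, Psmd8, Psmd13, Psmd14, Psme1, Psmg1, Psmg3 and Psmg4. That library enters the comparison of the vehicle groups only through the shared fit, yet 5 of its 21 calls were lost without it. They were those of Psma5, Psma6, Psmc1, Psmc3ip and Psmd3. Without mutant vehicle culture 1, SHP099 against vehicle gave 3 higher (6.12%, against 5.44% of all genes). Between the vehicle groups, 11 members were higher without WT replicate 2 (22.4%, against 10.2% of all genes) and 11 without mutant vehicle culture 3 (22.4%, against 10.05%). Without mutant vehicle culture 2, 12 were higher (24.5%, against 11.7% of all genes), and with the 2 groups fitted alone, 10 (20.4%, against 11.02%).

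**Figure D1:**
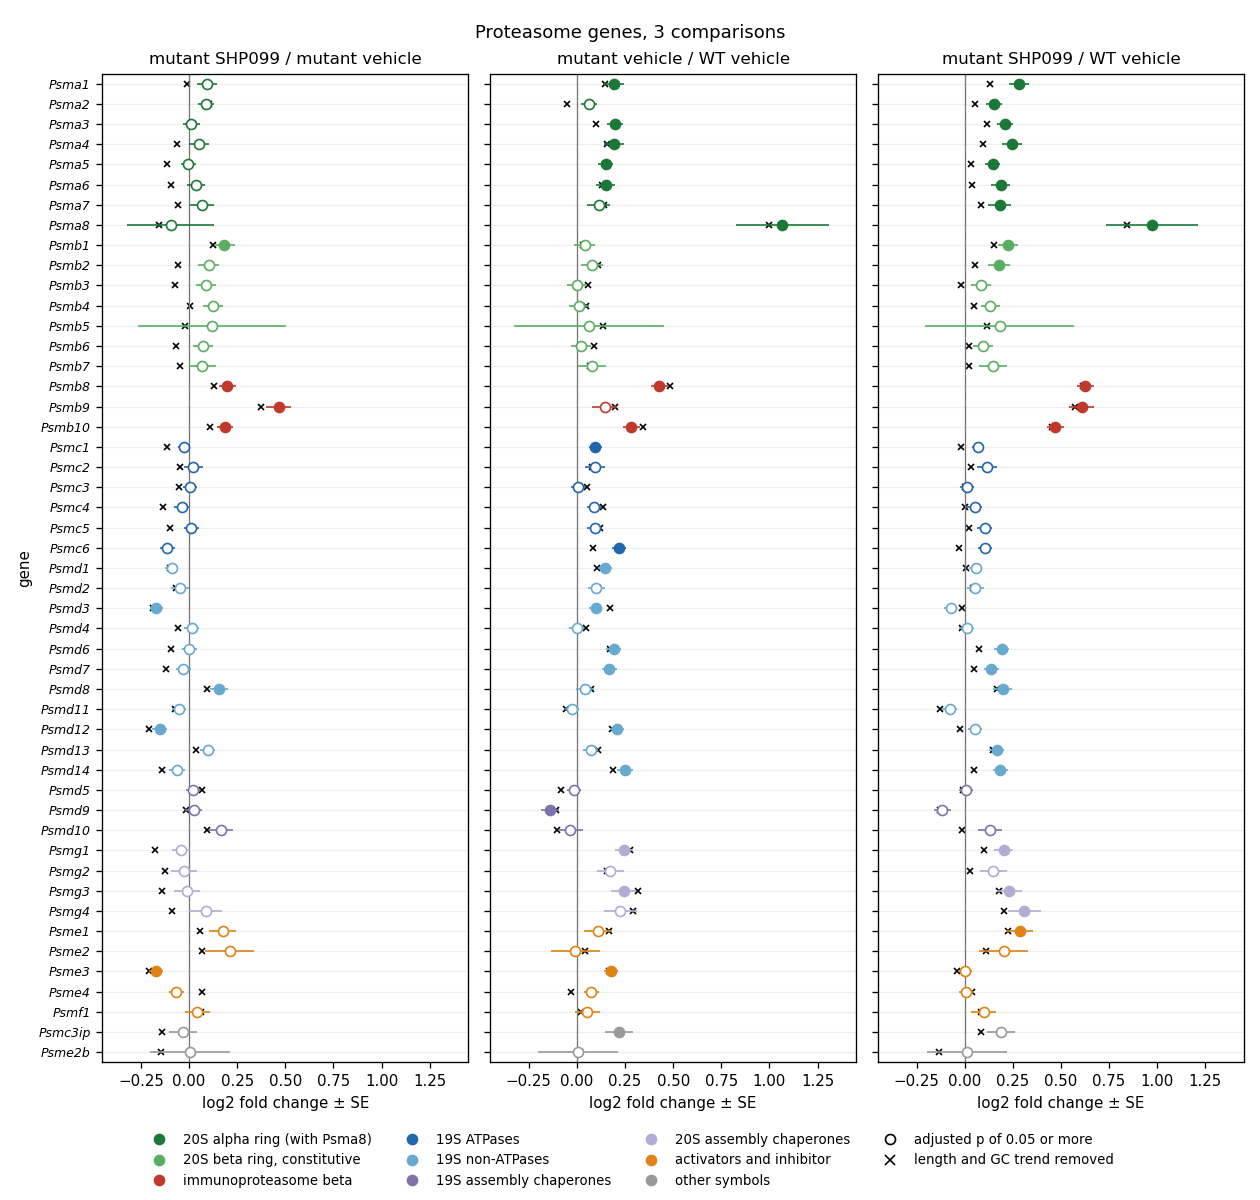
Log2 fold change of each of the 49 proteasome genes with its standard error (x axis), 1 gene per row, in the 3 comparisons; filled circles have an adjusted p below 0.05, open circles do not, and crosses give the value after the trend with transcript length and GC content was removed. The 3 immunoproteasome genes (red) lie right of 0 in every panel, while most other genes lie within 0.25 of 0.

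Among the inducible catalytic genes, Psmb9 (chromosome 17, 34181987 to 34187764, GRCm38) changed most with SHP099. It stood at 59.1, 49.96 and 52.2 CPM in SHP099-treated mutant cells, 39.4, 39.1 and 38.4 CPM in vehicle-treated mutant cells and 33.8, 37.1 and 35.00 CPM in WT cells. The SHP099 libraries lay above all others, and the vehicle groups lay close together without overlapping. The log2 fold change with SHP099 was 0.46 ± 0.06 (adjusted p = 0.0014), a fold of 1.38, and it passed the test in all 19 alternative analyses. Against WT cells, mutant vehicle cells differed by 0.14 ± 0.07 (adjusted p = 0.12), which missed the threshold, although it passed after removal of the length trend (adjusted p = 0.031). SHP099-treated mutant cells differed from WT cells by 0.61 ± 0.07 (adjusted p = 0.00035).

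Psmb8 (chromosome 17, 34197721 to 34201454) was the most abundant of the 3, at 197, 179 and 192 CPM in SHP099-treated mutant cells, 168, 159.9 and 168 CPM in vehicle-treated mutant cells and 121, 127 and 120.5 CPM in WT cells. No groups overlapped. Here the larger step lay between the genotypes: the log2 fold change was 0.43 ± 0.04 (adjusted p = 0.00037) between mutant and WT vehicle cells, and 0.20 ± 0.04 (adjusted p = 0.012) with SHP099. Over both steps, SHP099-treated mutant cells differed from WT cells by 0.63 ± 0.04 (adjusted p = 6.5e-05), and both comparisons with WT cells passed in all 17 alternatives. The SHP099 difference passed in 18 of 19, and missed in the fit that combined a block for all 9 libraries with removal of the length trend.

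Psmb10 (chromosome 8, 105935735 to 105938444) followed the same order, with 67.3, 69.7 and 70.7 CPM in SHP099-treated mutant cells, 59.5, 64.2 and 58.7 CPM in vehicle-treated mutant cells and 48.98, 51.4 and 49.6 CPM in WT cells. Again the groups did not overlap. The log2 fold change was 0.19 ± 0.04 (adjusted p = 0.013) with SHP099, 0.28 ± 0.04 (adjusted p = 0.0016) between mutant and WT vehicle cells, and 0.47 ± 0.04 (adjusted p = 0.00018) between SHP099-treated mutant and WT cells. The SHP099 difference was no longer called without SHP099 culture 3 or once the length trend was removed from the 9-library fit (adjusted p = 0.103). With the culture block over the 6 mutant libraries it was called (adjusted p = 0.00093), also with the trend removed (adjusted p = 0.035). Both differences from WT cells were called in all 17 alternatives.

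**Figure D2:**
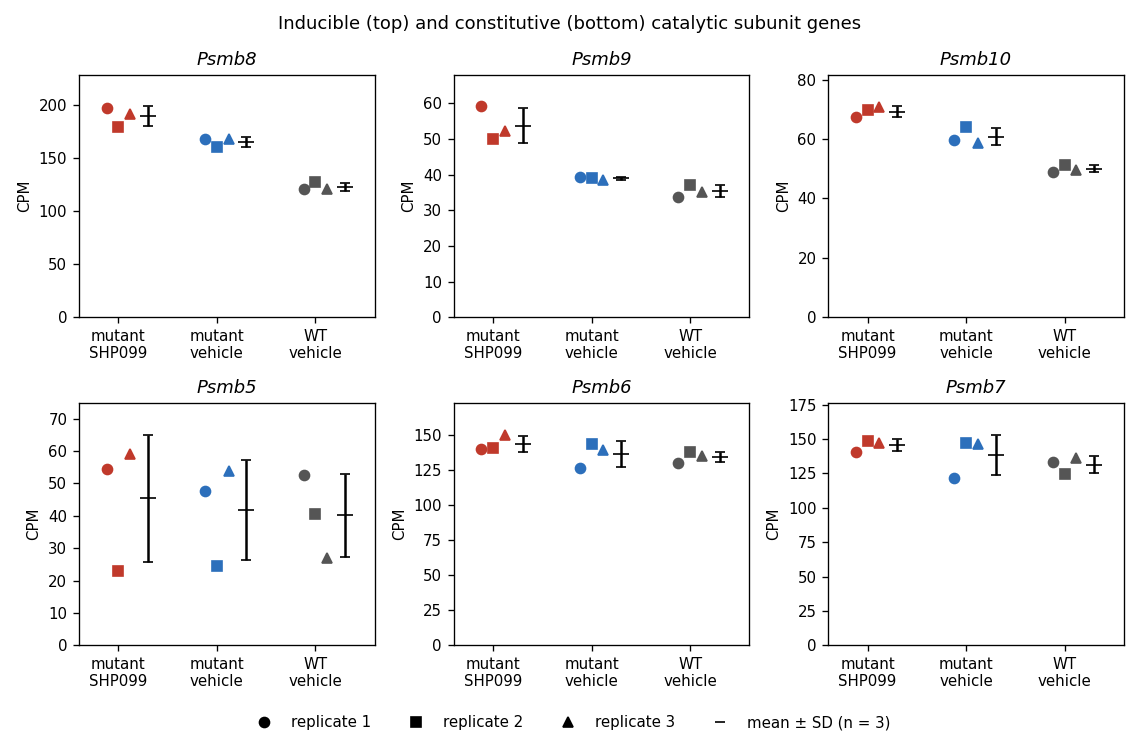
CPM (y axis, from 0) of the inducible catalytic genes Psmb8, Psmb9 and Psmb10 (top) and of the constitutive genes Psmb5, Psmb6 and Psmb7 (bottom) in mutant SHP099, mutant vehicle and WT vehicle libraries; symbols are replicates and bars are mean ± SD (n = 3). The inducible genes step down across the 3 groups without overlap, and the mutant groups overlap for each constitutive gene.

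The constitutive partners showed no such steps. Psmb6 stood at 140.2, 141 and 151 CPM in SHP099-treated mutant cells, 126, 144 and 139.8 CPM in vehicle-treated mutant cells and 131, 138 and 135 CPM in WT cells. Psmb7 stood at 141, 149 and 147 CPM in SHP099-treated mutant cells, 122, 147 and 147 CPM in vehicle-treated mutant cells and 133, 124 and 136 CPM in WT cells. Mutant vehicle culture 1 was the lowest library for both, and all groups overlapped, except that SHP099-treated libraries of both genes lay above all WT libraries. None of the 3 comparisons passed the test for either gene. Psmb6 had a log2 fold change of 0.07 ± 0.05 (adjusted p = 0.36) with SHP099 and of 0.02 ± 0.05 (adjusted p = 0.79) between the vehicle groups. Psmb5 varied far more between libraries of a group than between groups.

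Psmb5, Psmb6 and Psmb7 were also set against their inducible counterparts within each library, a measure that does not depend on scaling between libraries. The count ratio of Psmb9 to Psmb6 was 0.422, 0.355 and 0.347 in SHP099-treated mutant cells, 0.312, 0.272 and 0.275 in mutant vehicle cells and 0.258, 0.269 and 0.258 in WT cells. No groups overlapped, and the ratio was higher with SHP099 in all 3 cultures, by 0.44, 0.38 and 0.33 on the log2 scale. The mean log2 ratio differed by 0.39 between SHP099 and vehicle, by 0.12 between the vehicle groups and by 0.51 between SHP099-treated mutant and WT cells, each with an exact two-sided permutation p of 0.1, the smallest that 3 against 3 allows, and 0.225 after adjustment over the 9 ratio tests.

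The ratio of Psmb10 to Psmb7 was 0.479, 0.469 and 0.481 with SHP099, 0.489, 0.435 and 0.400 in mutant vehicle cells and 0.367, 0.413 and 0.364 in WT cells. SHP099-treated mutant cells lay above WT cells by 0.32 on the log2 scale without overlap (exact p = 0.1), while the other 2 comparisons overlapped (exact p = 0.4 for SHP099 against vehicle and 0.2 between the vehicle groups). The ratio of Psmb8 to Psmb5 was 3.63, 7.84 and 3.25 with SHP099, 3.52, 6.54 and 3.12 in mutant vehicle cells and 2.29, 3.11 and 4.48 in WT cells. These overlapped in all 3 comparisons (exact p = 0.6 for SHP099 against vehicle and 0.4 in both comparisons with WT cells). The permutation tests did not pair libraries of the same culture, so differences between cultures enter their p-values. Within cultures 1, 2 and 3, SHP099 minus vehicle was 0.04, 0.26 and 0.06 on the log2 scale for the ratio of Psmb8 to Psmb5. For the ratio of Psmb10 to Psmb7 it was -0.03, 0.11 and 0.27.

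Per transcript length, in TPM, which scales counts by transcript length and library size, the inducible gene was the larger of its pair only for Psmb8. Psmb8 made up 64.2% to 81.2% of the pair with Psmb5 in SHP099-treated mutant cells, 63.3% to 78.3% in mutant vehicle cells and 55.8% to 71.2% in WT cells. Psmb9 made up 17.0% to 19.9% of its pair with SHP099, 13.8% to 15.5% in mutant vehicle cells and 13.2% to 13.7% in WT cells. Psmb10 made up 29.3% to 29.8%, 26.1% to 30.2% and 24.4% to 26.8% in the same 3 groups. In TPM, Psmb8 averaged 241 ± 9.46 with SHP099, 229 ± 9.496 in mutant vehicle cells and 166 ± 6.89 in WT cells (SD, n = 3 each), so on this scale the SHP099 difference was about the size of the spread. Psmb9 averaged 82.4 ± 7.36 TPM with SHP099, 65.2 ± 2.08 TPM in mutant vehicle cells and 57.6 ± 3.66 TPM in WT cells.

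**Figure D3:**
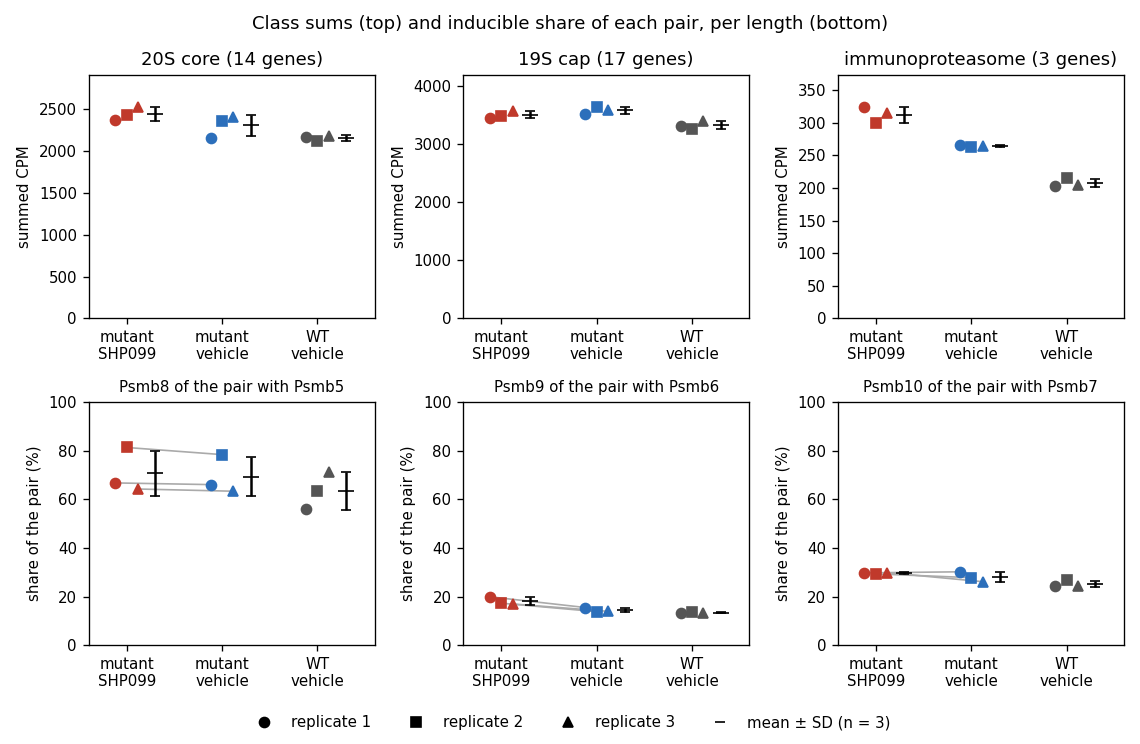
Top: CPM summed over the 14 genes of the 20S core, the 17 of the 19S cap and the 3 of the immunoproteasome; bottom: share of the inducible gene in each catalytic pair per transcript length, in percent, with lines joining libraries of the same mutant culture. Symbols are replicates and bars are mean ± SD (n = 3); the immunoproteasome sums do not overlap between groups, and the share of Psmb9 is higher with SHP099 in each of the 3 cultures.

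Exons of Psmb9 and of the peptide transporter gene Tap1 overlap on opposite strands, and exons of Psmb8 overlap those of Gm20496. The library kit keeps strand, but the sources used here do not say whether strand was used in counting. On the same strand, exons of Psmb5 overlap Mir686, those of Psmd1 overlap Gm21972, those of Psmg3 overlap Gm26938 and those of Psme2b overlap 9930111J21Rik1. Strand cannot separate reads of these. Tap1 had a log2 fold change of 0.17 ± 0.07 with SHP099 (adjusted p = 0.11) and of 0.20 ± 0.07 between the vehicle groups (adjusted p = 0.056). It was higher in SHP099-treated mutant than in WT cells by 0.37 ± 0.07 (adjusted p = 0.0046).

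Markers of other cell types moved between the groups as well, and their part in these results was not tested. With SHP099, 4 of 8 mature neutrophil markers were higher, with a sum of 25435 to 30382 CPM against 17581 to 18629 CPM in mutant vehicle cells; the sum in WT cells was 24005 to 30457 CPM. Between SHP099-treated mutant and WT cells, 1 of the 8 was higher and 1 lower. Of 7 mast cell and basophil markers, 4 were higher with SHP099 (1588 to 2063 CPM against 1093 to 1551 CPM) and 5 were lower in mutant than in WT vehicle cells, where the WT sum was 2053 to 2314 CPM; 1 was higher and 3 were lower in SHP099-treated mutant than in WT cells. Of 6 megakaryocyte markers, 2 were higher with SHP099 and all 6 were lower in each mutant group than in WT cells, with sums of 1401 to 1849 CPM with SHP099, 1105 to 1486 CPM in vehicle-treated mutant cells and 2458 to 3103 CPM in WT cells.

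Cell types with much immunoproteasome were also read. Of 8 macrophage markers, 0 were called with SHP099 by edgeR, by DESeq2 or at an unadjusted edgeR p below 0.05, 1 was higher in mutant than in WT vehicle cells and 3 in SHP099-treated mutant than in WT cells, with sums of 279 to 355 CPM with SHP099, 227 to 299.8 CPM in vehicle-treated mutant cells and 180.3 to 262 CPM in WT cells. Of 8 dendritic cell markers, Xcr1, Siglech, Batf3 and Cd209a were below 1 CPM in every library, 1 was lower in each mutant group than in WT cells, and the sums were 54.6 to 149 CPM, 63.8 to 157 CPM and 119 to 144 CPM in the same 3 groups. Of 10 lymphoid markers, 8 were below 1 CPM in every library (among them Cd3e, Cd3d, Cd79a and Ncr1), and of the 3 that were tested, 1 was higher with SHP099 against vehicle and 2 in SHP099-treated mutant than in WT cells. The lymphoid sums were 169 to 186 CPM, 116 to 119 CPM and 113 to 121 CPM. Of 6 erythroid markers, Hba-a1 and Hbb-bt were at 0 throughout, and 4 were lower in each mutant group than in WT cells, with sums of 75.8 to 96.4 CPM, 55.4 to 82.2 CPM and 133 to 192 CPM.

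In the constitutive beta ring of the 20S core, all 7 log2 fold changes with SHP099 were positive, between 0.07 and 0.18, and Psmb1 alone passed the test. When the length and GC trend was removed, 5 of the 7 were negative (all but Psmb1 and Psmb4), and the 7 lay between -0.08 and 0.12. Psmb1 stood at 218, 226 and 237 CPM in SHP099-treated mutant cells, 184, 207 and 209 CPM in vehicle-treated mutant cells and 194, 189 and 200.1 CPM in WT cells. The SHP099 libraries lay above all others, with a log2 fold change of 0.18 ± 0.05 (adjusted p = 0.038). The call was lost without SHP099 culture 2 or 3, without mutant vehicle culture 1 and with the 2 groups alone. In the fit of all libraries it was also lost when the length trend was removed, with or without the replicate block. With the culture block over the mutant libraries alone, Psmb1 was called (adjusted p = 0.00027), also with the trend removed (adjusted p = 0.0033). Psmb2 stood at 169, 176 and 183 CPM in SHP099-treated mutant cells, 149, 168 and 174 CPM in vehicle-treated mutant cells and 155, 155 and 155 CPM in WT cells, overlapping between SHP099 and vehicle (0.10 ± 0.06, adjusted p = 0.23). Psmb4 stood at 254, 263 and 266 CPM in SHP099-treated mutant cells, 221, 249 and 249 CPM in vehicle-treated mutant cells and 231, 239 and 243 CPM in WT cells, with all SHP099 libraries above all mutant vehicle libraries but no call (0.12 ± 0.05, adjusted p = 0.11). Psmb3 had a log2 fold change of 0.09 ± 0.05 (adjusted p = 0.27).

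In the alpha ring, which gates the entry to the core, 0 of 7 genes were called with SHP099 by edgeR or DESeq2, 0 also at an unadjusted edgeR p below 0.05, and the 7 log2 fold changes lay between -0.0043 and 0.09. Against WT cells the alpha ring moved more. In mutant vehicle cells, 5 of 7 genes were higher (Psma1, Psma3, Psma4, Psma5 and Psma6), against 16.9% of all genes tested. In SHP099-treated mutant cells all 7 were higher, against 15.4% of all genes. When the length and GC trend was removed, 1 of those 7 calls was kept with SHP099 (Psma3) and 4 of the 5 without it (all but Psma3). Of the 7 constitutive beta genes, 0 were called between the vehicle groups by edgeR or DESeq2, 0 also at an unadjusted edgeR p below 0.05, and 2 of 7 (Psmb1 and Psmb2) between SHP099-treated mutant and WT cells, both lost without SHP099 culture 3; whether the rings differ from each other was not tested. Psma1 stood at 237, 251 and 257 CPM in SHP099-treated mutant cells, 219, 231 and 248 CPM in vehicle-treated mutant cells and 208, 198 and 206 CPM in WT cells. Both mutant groups lay above all WT libraries, with log2 fold changes of 0.19 ± 0.05 (adjusted p = 0.02) for mutant against WT vehicle cells and 0.28 ± 0.05 (adjusted p = 0.0037) for SHP099-treated mutant against WT cells. The vehicle call was lost without WT replicate 2 or 3 or mutant vehicle culture 2 or 3, and with the 2 groups fitted alone. The call with SHP099 was lost on removal of the length trend (adjusted p = 0.059).

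Psma3 stood at 94.04, 101 and 101 CPM in SHP099-treated mutant cells, 95.6, 96.7 and 101 CPM in vehicle-treated mutant cells and 84.2, 83.5 and 87.9 CPM in WT cells, again with both mutant groups above WT cells, by 0.20 ± 0.04 (adjusted p = 0.0068) without SHP099, a call lost on removal of the length trend (adjusted p = 0.076). Psma4 stood at 141, 149.8 and 147 CPM in SHP099-treated mutant cells, 133, 147 and 142 CPM in vehicle-treated mutant cells and 125, 115 and 128 CPM in WT cells. Its log2 fold change over WT cells was 0.19 ± 0.05 (adjusted p = 0.018) without SHP099 and 0.25 ± 0.05 (adjusted p = 0.0067) with it. Mutant libraries of Psma4 lay above all WT libraries. Its vehicle call was lost without WT replicate 2 or mutant vehicle culture 2 or 3, and with the 2 groups fitted alone. The call with SHP099 was lost on removal of the length trend (adjusted p = 0.14).

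Psma5 stood at 105, 111 and 111 CPM in SHP099-treated mutant cells, 107, 109 and 112 CPM in vehicle-treated mutant cells and 96.6, 96.4 and 103 CPM in WT cells. It differed by 0.15 ± 0.04 (adjusted p = 0.018) between the vehicle groups. This call was lost without WT replicate 1 or 2, mutant vehicle culture 2 or 3 or SHP099 culture 3, and with the 2 groups fitted alone. Psma2 stood at 226, 229 and 238 CPM in SHP099-treated mutant cells, 207, 223 and 222 CPM in vehicle-treated mutant cells and 211, 204 and 209 CPM in WT cells, where mutant vehicle and WT libraries overlapped (0.06 ± 0.04, adjusted p = 0.26) and SHP099-treated libraries lay above both (0.15 ± 0.04, adjusted p = 0.019 against WT cells). That call was lost without WT replicate 2 or SHP099 culture 3 and on removal of the length trend (adjusted p = 0.45). Psma7 stood at 239, 241 and 256 CPM in SHP099-treated mutant cells, 214, 253 and 236 CPM in vehicle-treated mutant cells and 211, 213 and 226 CPM in WT cells, with a difference of 0.18 ± 0.06 (adjusted p = 0.045) between SHP099-treated mutant and WT cells that held in 7 of 17 alternatives. Psma6 was higher in mutant than in WT vehicle cells by 0.15 ± 0.05 (adjusted p = 0.04), a call kept in 6 of 17 alternatives. Exons of Psma4 and Psma5 overlap those of AY074887 and 1700010K24Rik on the opposite strand. A few of their counts may belong to these if strand was not used in counting.

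Psma8, which replaces Psma7 in the proteasome of germ cells, had the largest fold difference between genotypes but a low level. It stood at 4.59, 2.63 and 4.19 CPM in SHP099-treated mutant cells, 4.74, 2.96 and 4.54 CPM in vehicle-treated mutant cells and 1.94, 1.98 and 1.90 CPM in WT cells. All 6 mutant libraries lay above all WT libraries, with a log2 fold change of 1.07 ± 0.24 (adjusted p = 0.0091) between the vehicle groups and 0.97 ± 0.24 (adjusted p = 0.014) between SHP099-treated mutant and WT cells, and both were called in all 17 alternatives. Culture 2 was the lowest of the mutant cultures in both treatments. The SHP099 difference was not detectable at this depth, at -0.10 ± 0.23 (adjusted p = 0.8).

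In the 19S cap, 1 of 17 genes (5.88%) was higher and 2 (11.8%) were lower with SHP099. The shares of all genes tested were 8.81% and 13.0%, so these counts did not exceed the background. Psmd3, a lid subunit, was lower in every SHP099 library than in any other, at 228, 229 and 232 CPM in SHP099-treated mutant cells, 254, 262 and 259 CPM in vehicle-treated mutant cells and 236, 241 and 247 CPM in WT cells. Its log2 fold change was -0.17 ± 0.03 (adjusted p = 0.0066), called in all 19 alternatives. Mutant vehicle cells exceeded WT cells by 0.10 ± 0.03 (adjusted p = 0.048), a call kept in 3 of 17 alternatives. Psmd12, another lid subunit, stood at 123, 130.0 and 126 CPM in SHP099-treated mutant cells, 140.5, 142 and 139 CPM in vehicle-treated mutant cells and 120.1, 119 and 126 CPM in WT cells. Mutant vehicle cells were the high group, and the other 2 groups overlapped. The log2 fold change was -0.15 ± 0.04 (adjusted p = 0.017) with SHP099 and 0.21 ± 0.04 (adjusted p = 0.0033) between mutant and WT vehicle cells. The genotype difference was called in all 17 alternatives, while the SHP099 difference was lost when any of SHP099 cultures 1 and 3 or mutant vehicle cultures 2 and 3 was left out.

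Psmd8, a lid subunit, went the other way with SHP099: 202, 197 and 205 CPM in SHP099-treated mutant cells, 173, 191 and 177 CPM in vehicle-treated mutant cells and 173, 169 and 184 CPM in WT cells. The SHP099 libraries lay above all others, with a log2 fold change of 0.16 ± 0.05 (adjusted p = 0.043) against vehicle that was kept in 11 of 19 alternatives. It was lost without SHP099 culture 1 or 3, without mutant vehicle culture 1 or 3 and without WT replicate 1. In the 9-library fit it was also lost with the replicate block, on removal of the length trend (adjusted p = 0.15) and with both. With the culture block over the 6 mutant libraries, Psmd8 was called (adjusted p = 0.0022), also with the trend removed (adjusted p = 0.032). Psmd13, also of the lid, stood at 191, 194 and 201 CPM in SHP099-treated mutant cells, 177, 190.4 and 182 CPM in vehicle-treated mutant cells and 173, 172 and 177 CPM in WT cells. It was called between SHP099-treated mutant and WT cells (0.17 ± 0.04, adjusted p = 0.011) but not with SHP099 against vehicle (0.10 ± 0.04, adjusted p = 0.11), and the call was lost without SHP099 culture 3.

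Between mutant and WT vehicle cells, 8 of the 17 cap genes (47.1%) were higher and 0 were lower. The shares of all genes tested were 16.9% and 14.7%. The 8 genes were Psmc1, Psmc6, Psmd1, Psmd3, Psmd6, Psmd7, Psmd12 and Psmd14. In edgeR, 0 were also lower at an unadjusted p below 0.05, and DESeq2 called 6 higher and 0 lower. Psmd14, the deubiquitinase that cuts ubiquitin chains off substrates, stood at 176, 186 and 192 CPM in SHP099-treated mutant cells, 191, 192 and 195 CPM in vehicle-treated mutant cells and 162, 158 and 166 CPM in WT cells. Mutant libraries lay above all WT libraries in both treatments. The log2 fold change was 0.25 ± 0.04 (adjusted p = 0.002) between the vehicle groups, in all 17 alternatives. Psmd6, which sits in the lid, stood at 145, 149 and 153 CPM in SHP099-treated mutant cells, 148, 151 and 148 CPM in vehicle-treated mutant cells and 129, 127 and 136 CPM in WT cells, with 0.19 ± 0.04 (adjusted p = 0.0058) between the vehicle groups and 0.19 ± 0.04 (adjusted p = 0.006) between SHP099-treated mutant and WT cells, the second of which was lost on removal of the length trend (adjusted p = 0.12). Psmd1, the large scaffold subunit of the base, was higher by 0.15 ± 0.04 (adjusted p = 0.012) and Psmd7, the partner of Psmd14, by 0.17 ± 0.04 (adjusted p = 0.0096) between the vehicle groups. Both calls were lost without mutant vehicle culture 2 and with the 2 groups fitted alone. That of Psmd1 was also lost without mutant vehicle culture 3 or WT replicate 2.

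The 6 ATPases of the base had log2 fold changes between -0.11 and 0.02 with SHP099 and 0 calls by edgeR or DESeq2, and 1 was lower at an unadjusted edgeR p below 0.05. That gene was Psmc6, at 165, 173 and 176 CPM in SHP099-treated mutant cells, 189, 181 and 187 CPM in vehicle-treated mutant cells and 158, 158 and 162 CPM in WT cells. Mutant vehicle libraries lay above all others, by 0.22 ± 0.04 (adjusted p = 0.0026) over WT cells, which became 0.08 (adjusted p = 0.079) on removal of the length trend. The log2 fold change with SHP099 was -0.11 ± 0.04 (adjusted p = 0.056), which the culture block brought under the threshold (adjusted p = 0.020). Psmc1 stood at 201, 205 and 207 CPM in SHP099-treated mutant cells, 205, 209 and 209 CPM in vehicle-treated mutant cells and 197, 193 and 193 CPM in WT cells, with a genotype difference of 0.10 ± 0.03 (adjusted p = 0.043) that held in 2 of 17 alternatives.

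Psmc5 stood at 169, 167 and 169.7 CPM in SHP099-treated mutant cells, 160.4, 176 and 165 CPM in vehicle-treated mutant cells and 157, 154 and 159.6 CPM in WT cells. Psmc4 stood at 185, 179.9 and 189 CPM in SHP099-treated mutant cells, 185, 193 and 191 CPM in vehicle-treated mutant cells and 171, 179 and 184 CPM in WT cells. Neither passed in any of the 3 comparisons, and their log2 fold changes with SHP099 were 0.01 and -0.04. Psmc2 stood at 174, 177 and 184 CPM in SHP099-treated mutant cells, 169.6, 180.1 and 176 CPM in vehicle-treated mutant cells and 167, 152 and 173 CPM in WT cells and overlapped between the mutant groups. Psmc3 had a log2 fold change of 0.01 with SHP099 and of 0.01 between the vehicle groups. With the culture block and the length trend removed together, Psmc1, Psmc4, Psmc5 and Psmc6 were all called lower with SHP099, by 0.10 to 0.14 on the log2 scale.

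Among the remaining cap subunits, Psmd2, the base scaffold that docks ubiquitin-carrying shuttle proteins and the most abundant gene of the set in CPM, had a log2 fold change of -0.05 ± 0.04 (adjusted p = 0.5) with SHP099. Psmd4, a ubiquitin receptor, had 0.01 ± 0.04 (adjusted p = 0.84). Psmd11, of the lid, had -0.05 ± 0.04 (adjusted p = 0.35). None of these 3 passed in any comparison of the 9-library fit.

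Assembly chaperones build the particle and then leave it. Psmg1 to Psmg4 help to assemble the alpha ring of the 20S core. Psmg1 stood at 41.6, 45.7 and 43.9 CPM in SHP099-treated mutant cells, 44.6, 44.5 and 46.05 CPM in vehicle-treated mutant cells and 37.6, 37.5 and 38.96 CPM in WT cells. Both mutant groups lay above WT cells, by 0.24 ± 0.05 (adjusted p = 0.0045) without SHP099, a call held in all 17 alternatives. Psmg3 stood at 37.00, 35.3 and 37.1 CPM in SHP099-treated mutant cells, 39.2, 35.2 and 35.9 CPM in vehicle-treated mutant cells and 28.4, 31.9 and 32.9 CPM in WT cells. It differed by 0.24 ± 0.07 (adjusted p = 0.021) between the vehicle groups, with no overlap with WT cells. This call was lost without WT replicate 1 or 2 or mutant vehicle culture 1 or 3, and with the 2 groups fitted alone. Psmg4 stood at 17.00, 15.7 and 18.5 CPM in SHP099-treated mutant cells, 15.1, 17.8 and 15.2 CPM in vehicle-treated mutant cells and 13.3, 13.95 and 14.01 CPM in WT cells, and was called between SHP099-treated mutant and WT cells (0.31 ± 0.09, adjusted p = 0.021), which was lost without WT replicate 1 or 2 or SHP099 culture 3 and on removal of the length trend (adjusted p = 0.052). In all, 2 of the 4 were higher in mutant than in WT vehicle cells, against 16.9% of all genes tested. Between SHP099-treated mutant and WT cells, 3 of 4 were higher (all 3 lost without SHP099 culture 3), against 15.4% of all genes. With SHP099 against vehicle, 0 of 4 were called by edgeR or DESeq2, and 0 at an unadjusted edgeR p below 0.05.

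Psmd5, Psmd9 and Psmd10 chaperone the base of the 19S cap. Psmd9 was the only member lower in mutant than in WT vehicle cells, at 38.1, 37.5 and 38.4 CPM in SHP099-treated mutant cells, 37.7, 37.3 and 37.2 CPM in vehicle-treated mutant cells and 39.1, 42.5 and 42.01 CPM in WT cells. All 6 mutant libraries lay below all WT libraries, with -0.14 ± 0.05 (adjusted p = 0.042) between the vehicle groups, a call kept in 8 of 17 alternatives and lost without WT replicate 2 or 3 or any mutant vehicle culture. Psmd10, also known as gankyrin, stood at 30.9, 28.4 and 29.5 CPM in SHP099-treated mutant cells, 25.6, 26.97 and 26.6 CPM in vehicle-treated mutant cells and 28.9, 26.8 and 25.3 CPM in WT cells. The mutant groups did not overlap, with 0.17 ± 0.06 (adjusted p = 0.088) for SHP099 against vehicle, and the culture block brought it under the threshold (adjusted p = 0.018). Psmd5 had a log2 fold change of 0.02 with SHP099.

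Of the activators, Psme3, which forms a nuclear ring on the core that works without ubiquitin, was lower with SHP099. It stood at 331, 331 and 313 CPM in SHP099-treated mutant cells, 359, 373 and 368 CPM in vehicle-treated mutant cells and 324, 319 and 331 CPM in WT cells. Mutant vehicle libraries lay above both other groups, which overlapped. The log2 fold change was -0.17 ± 0.04 (adjusted p = 0.01) with SHP099 and 0.18 ± 0.04 (adjusted p = 0.007) between mutant and WT vehicle cells. The SHP099 difference was called in 18 of 19 alternatives and lost without SHP099 culture 3, and the genotype difference was called in all 17.

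Psme4, a large activator that caps the core, stood at 159, 169.6 and 162 CPM in SHP099-treated mutant cells, 172, 166 and 176 CPM in vehicle-treated mutant cells and 167, 158 and 162 CPM in WT cells. Psmf1, an inhibitor of the core in the test tube, stood at 59.9, 58.8 and 53.2 CPM in SHP099-treated mutant cells, 55.6, 58.6 and 52.5 CPM in vehicle-treated mutant cells and 51.01, 57.5 and 52.2 CPM in WT cells. Groups overlapped for both, and neither gene passed in any comparison.

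Psme1 and Psme2, the subunits of PA28, were higher with SHP099 within every culture. Psme1 stood at 151, 132 and 146 CPM in SHP099-treated mutant cells, 138, 119 and 123 CPM in vehicle-treated mutant cells and 126, 117 and 110.4 CPM in WT cells. Psme2 stood at 113, 141 and 119 CPM in SHP099-treated mutant cells, 101, 125 and 96.5 CPM in vehicle-treated mutant cells and 94.6, 104 and 125 CPM in WT cells. The mutant groups overlapped for both genes, with culture 2 lowest for Psme1 and highest for Psme2. Without a block the log2 fold changes with SHP099 were 0.18 ± 0.07 (adjusted p = 0.11) for Psme1 and 0.21 ± 0.13 (adjusted p = 0.27) for Psme2, both short of the threshold. With the culture as a block, adjusted p was 0.00062 for Psme1 and 8.4e-05 for Psme2, but neither passed when the length trend was removed as well (adjusted p = 0.23 and 0.17). Psme1 was higher in SHP099-treated mutant than in WT cells by 0.29 ± 0.07 (adjusted p = 0.014), a call lost without SHP099 culture 1 or 3 or WT replicate 3 and on removal of the length trend (adjusted p = 0.063).

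Psmb5 (chromosome 14, 54614119 to 54618022) had the widest range between mutant cultures of the 49 genes, and Psme2 (chromosome 14, 55587441 to 55591113) is set beside it. These genes were picked out after their values were seen, so their spread is a description. Psmb5 stood at 54.3, 22.9 and 59.02 CPM in SHP099-treated mutant cells, 47.7, 24.4 and 53.7 CPM in vehicle-treated mutant cells and 52.7, 40.7 and 26.9 CPM in WT cells. Mutant culture 2 was low in both treatments, and WT replicate 3 was low among WT libraries. The mean of the 2 treatments ranged over 1.25 log2 units across the 3 mutant cultures, a range exceeded by 262 of the 13270 genes (1.97%), while the median range was 0.07 for the members and 0.13 for all genes. The range was 0.73 for Psma8, exceeded by 6.99% of all genes, 0.62 for Psme2b, exceeded by 9.53%, and 0.32 for Psme2, exceeded by 23.1%.

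Psme2 ran the other way: mutant culture 2 was its highest culture in both treatments, and WT replicate 3 its highest WT library. Psme2b, whose symbol marks it as a close relative of Psme2, stood at 3.996, 4.64 and 3.29 CPM in SHP099-treated mutant cells, 3.70, 5.13 and 3.04 CPM in vehicle-treated mutant cells and 3.34, 4.03 and 4.47 CPM in WT cells. It was highest in the same 3 libraries within their groups. Reads of near-identical sequence cannot be assigned with certainty, so the low counts of Psme2b may in part come from Psme2. Psmc3ip, which is no subunit but a protein of meiotic recombination named for its contact with Psmc3, ran from 21.8 to 28.2 CPM, and its only call, between the vehicle groups (0.22 ± 0.07, adjusted p = 0.047), held in 4 of 17 alternatives.

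**Figure D4:**
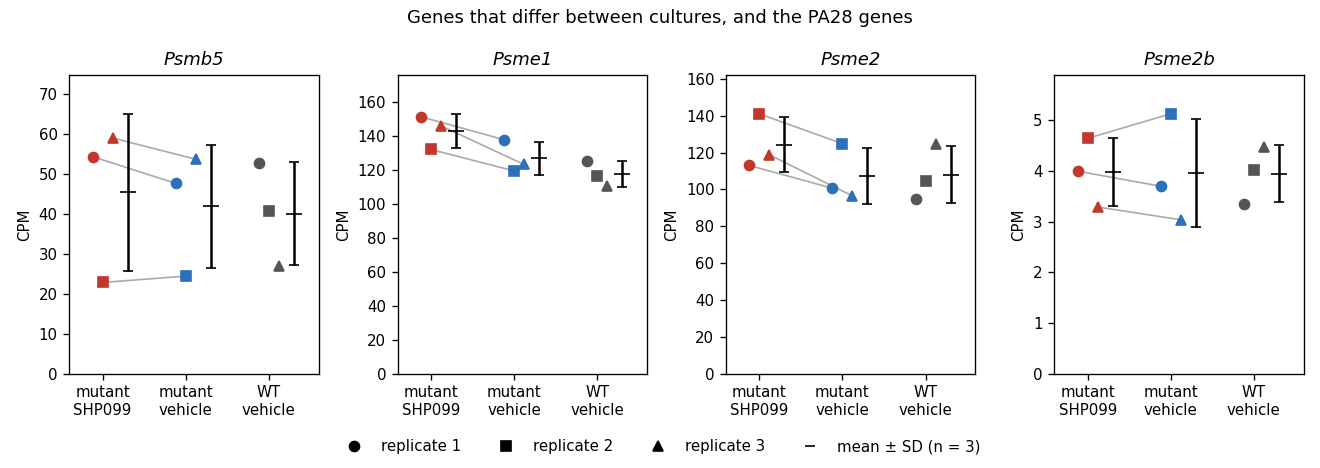
CPM (y axis, from 0) of Psmb5, Psme1, Psme2 and Psme2b by group, with lines joining SHP099 and vehicle libraries of the same mutant culture; symbols are replicates and bars are mean ± SD (n = 3). Culture 2 (squares) is lowest for Psmb5 and highest for Psme2 and Psme2b in both mutant groups, and Psme1 and Psme2 are higher with SHP099 in each culture.

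Partners of the proteasome were read from 2 lists. The list of ubiquitin-proteasome partners held 28 tested genes (ubiquitin genes and their activating enzymes, shuttle factors, deubiquitinases and the factors that control proteasome transcription). With SHP099, 5 were higher and 7 lower; between the vehicle groups 6 were higher and 2 lower; and between SHP099-treated mutant and WT cells 6 were higher and 1 lower. Of all genes tested, 8.81% were higher and 13.0% lower with SHP099, and 16.9% and 14.7% between the vehicle groups. Between SHP099-treated mutant and WT cells the shares were 15.4% and 16.3%. The medians of the list were -0.02, 0.05 and 0.02 on the log2 scale.

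Uba6 and Uba1, which charge ubiquitin at the start of the cascade, were lower with SHP099, with log2 fold changes of -0.43 ± 0.06 (adjusted p = 0.00091) and -0.20 ± 0.04 (adjusted p = 0.0082). Bag6, a chaperone that hands misfolded proteins to the proteasome, was also lower, at -0.20 ± 0.04 (adjusted p = 0.0046). Shfm1, which encodes the smallest subunit of the 19S lid under a symbol outside the Psm series, was higher, at 281, 272 and 307 CPM in SHP099-treated mutant cells, 219, 226 and 232 CPM in vehicle-treated mutant cells and 229, 236 and 234 CPM in WT cells, a difference of 0.34 ± 0.05 (adjusted p = 0.0014). Ngly1, the deglycosylase that Nrf1 needs to become active, was higher by 0.30 ± 0.05 (adjusted p = 0.0036).

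Uba6, the proteasome-bound deubiquitinases Usp14 and Uchl5, and the shuttle factor Rad23b were higher in mutant than in WT vehicle cells, by 0.34, 0.32, 0.30 and 0.22 on the log2 scale; the call of Uba6 was lost on removal of the length trend (adjusted p = 0.058). Between SHP099-treated mutant and WT cells, Pomp, the maturation factor of the core, was higher by 0.22 ± 0.06 (adjusted p = 0.015) and the ubiquitin fusion gene Rps27a by 0.27 ± 0.07 (adjusted p = 0.018), while Bag6 was lower, at -0.21 ± 0.04 (adjusted p = 0.0032). Without SHP099 culture 3, Pomp (adjusted p = 0.080) and Rps27a (adjusted p = 0.082) were no longer called, and on removal of the length trend neither Rps27a (adjusted p = 0.12) nor Bag6 (adjusted p = 0.13) was.

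The antigen-processing list held 15 tested genes, which act after the proteasome in the display of peptides or control the inducible subunits. With SHP099, 5 were higher and 1 lower; between the vehicle groups 5 were higher and 1 lower; and between SHP099-treated mutant and WT cells 11 were higher and 0 lower (DESeq2 gave the same 2 counts, and edgeR 12 and 0 at an unadjusted p below 0.05). The shares of all genes tested were 8.81% higher and 13.0% lower with SHP099, and 16.9% and 14.7% between the vehicle groups. Between SHP099-treated mutant and WT cells they were 15.4% and 16.3%. The medians of the list were 0.12, 0.11 and 0.26 on the log2 scale. The genes higher with SHP099 were the MHC class I heavy chains H2-D1 (0.42 ± 0.05, adjusted p = 0.00059) and H2-K1 (0.26 ± 0.05, adjusted p = 0.0099), the light chain B2m (0.46 ± 0.06, adjusted p = 0.00077), the peptide transporter subunit Tap2 (0.26 ± 0.04, adjusted p = 0.0024) and the loading factor Tapbp (0.33 ± 0.04, adjusted p = 0.00065). The lower gene was the chaperone Canx (-0.19 ± 0.05, adjusted p = 0.018), named after its value was seen, whose call was lost on removal of the length trend (adjusted p = 0.054). B2m stood at 678, 679 and 673 CPM in SHP099-treated mutant cells, 474, 503 and 499 CPM in vehicle-treated mutant cells and 491, 484 and 425 CPM in WT cells.

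Between the vehicle groups, Nlrc5, the transactivator of MHC class I and immunoproteasome genes, was higher in mutant cells by 0.65 ± 0.08 (adjusted p = 0.00063). It stood at 14.8, 14.5 and 16.4 CPM in SHP099-treated mutant cells, 15.99, 16.5 and 18.3 CPM in vehicle-treated mutant cells and 10.6, 11.5 and 10.4 CPM in WT cells. Erap1, which trims peptides, was higher by 0.30 ± 0.04 (adjusted p = 0.0013), Canx by 0.23 ± 0.05 (adjusted p = 0.0062) and the interferon-induced factor Irf1 by 0.18 ± 0.05 (adjusted p = 0.014), while Tapbp was lower, at -0.14 ± 0.04 (adjusted p = 0.022), which was lost on removal of the length trend (adjusted p = 0.090). Irf1 was higher by 0.31 ± 0.05 (adjusted p = 0.0015) between SHP099-treated mutant and WT cells.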

How the data were processed

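The values are raw read counts per gene in 9 mRNA libraries, as deposited by the authors in 1 table of 24421 genes; libraries were made with a stranded mRNA kit, per the labels' protocols. FastQC, STAR, featureCounts (Subread) and the mm10 build are named in the submitters' processing notes; the sources used here give no versions, annotation or strand setting. The column of SHP099 culture 3 differs from its sample title in the last character.

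Counts were tested with edgeR 4.0.16 (R 4.3.3): TMM scaling, filterByExpr with a minimum count of 10 (13270 genes tested, 11151 left out), 1 mean per group over all 9 libraries, quasi-likelihood tests, and Benjamini-Hochberg adjustment over all genes tested with a threshold of 0.05. The standard error of a log2 fold change is its size divided by the square root of F. CPM are TMM-scaled. The length trend (lowess, span 0.3) uses the longest coding transcript of GENCODE M21 on GRCm38, which gave a length for 96.5% of the genes tested. TPM use the longest transcript marked as principal in that annotation and, where none is marked, the longest coding transcript. Ratios of 2 genes were tested by exact two-sided permutation over libraries, without pairing by culture (SciPy 1.17.1). The edgeR fits were tested on simulated data with known changes. The common biological coefficient of variation was 9.04%. Replicates differed beyond sampling noise, with a chi-square per degree of freedom of 10.9 or more in all pairs. Pairs with SHP099 culture 3 stood at 113.6 and 110.3, and the other pairs reached at most 25.48.

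Deviations from the group means were correlated between libraries of the same mutant culture (r = 0.54, 0.60 and 0.56), as the series' design implies with 1 mouse per culture. Values for different cultures were -0.36 to -0.23. Deviations cancel within a group, so these negative values follow from the positive ones and are no separate evidence. WT numbers did not pair with mutant numbers (r = -0.14 to -0.05). Alternatives were RLE scaling, DESeq2 1.42.0, no low-count filter, 1 CPM in 3 libraries, leaving out each library, a replicate block, the 2 groups alone and removal of the length trend. The block over the 6 mutant libraries was added after seeing the data. The members, gene lists and tests were chosen with earlier results of these data known. Values in every library are given for the 6 catalytic genes, Psme1, Psme2 and the up to 3 members with the smallest p per class and comparison, and non-members are named up to 5 per partner list and comparison; Psme2b and the culture pattern were chosen after their values were seen. Some results are not reported here.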

Additional observations from a re-analysis of the deposited data

How the results depend on the processing

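Counts of members called with SHP099 against vehicle (5 higher, 3 lower) ranged from 2 to 6 higher and 1 to 3 lower when 1 library was left out, with the lowest counts without SHP099 culture 3. Mutant against WT vehicle cells (20 higher, 1 lower) gave 11 to 23 higher and 0 to 1 lower; the lowest, 11, came without WT replicate 2 and without mutant vehicle culture 3, and 12 without mutant vehicle culture 2. SHP099-treated mutant against WT cells (22 higher, 0 lower) gave 8 to 25 higher and 0 to 1 lower, with 8 without SHP099 culture 3. With only the 2 groups compared, mutant against WT vehicle cells gave 10 higher. The 1 lower gene there, Psmd9, was at 0 without a low-count filter, with the replicate block, with the length trend removed and with both. Cultures pair the mutant libraries, and the replicate block over those 6 gave 11 higher with SHP099; the replicate block over all 9 libraries gave 5 higher and 3 lower for SHP099 against vehicle, 18 and 0 between the vehicle groups, and 24 and 0 for SHP099-treated mutant against WT cells.

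Removal of the length and GC trend gave 2 higher and 9 lower with SHP099 (1 and 6 with the block over 9 libraries, 5 and 17 with the block over 6), and 8 higher and 1 lower for SHP099-treated mutant against WT cells (9 and 1 with the block). It turned the SHP099 median of the 20S core to -0.051 (-0.050 with the block over 9 libraries, -0.053 with the block over 6), and moved that of the 19S cap to -0.10 (-0.10 with either block) and of the immunoproteasome to 0.13 (0.13 with either block). With it the immunoproteasome median was 0.34 between the vehicle groups (0.34 with the block), and for SHP099-treated mutant against WT cells the 20S core was at 0.052 (0.051 with the block) and the 19S cap at 0.0092 (0.0092 with the block). With the block over 6 libraries and the trend removed, Psmc5 (-0.10), Psma6 (-0.095) and Psmd6 (-0.10) were called lower with SHP099, where the fit without either put them at 0.01, 0.04 and 0.00054. The cause was not tested.

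Leaving out 1 library moved the SHP099 medians between 0.02 and 0.12 for the 20S core, -0.03 and -0.0074 for the 19S cap and 0.19 and 0.25 for the immunoproteasome. Between the vehicle groups they moved between 0.026 and 0.15, 0.067 and 0.12, and 0.23 and 0.30 for the same classes, and for SHP099-treated mutant against WT cells between 0.13 and 0.18, 0.04 and 0.08, and 0.53 and 0.66. RLE scaling, DESeq2 and the other low-count filter kept all 6 counts within 1.5 times. Leaving out 1 library moved the SHP099 difference in the ratio of Psmb8 to Psmb5 between -0.28 and 0.45, against 0.12 with all libraries. The ratio tests could not pass 0.05 with 3 libraries a group. Low counts limit Psma8 and Psme2b.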
